A study of Mus musculus with 10 samples.

Results

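The genes of oxidative phosphorylation were examined in embryonic day 12 mouse cortex, as 15 mitochondrially encoded and 79 nuclear-encoded members among the 24814 genes of the deposited table. Members were taken by name: every gene whose symbol starts with mt-, and every nuclear gene whose symbol matches the Nduf, Sdh, Uqcr, Cox4 to Cox8 or Atp5 families, leaving out 1 symbol marked as a pseudogene. The mitochondrial members were 13 protein genes and the 2 ribosomal RNAs. Of the nuclear members, 36 belong by name to complex I, 4 to complex II, 8 to complex III, 14 to complex IV and 15 to complex V. Atp5s and Atp5sl were taken in by their names and are not subunits of the ATP synthase, so they were counted among the 79 and in no complex. Ndufa4 was kept with complex I by its name, although its protein is now placed with complex IV.

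The 10 libraries were made from polyadenylated RNA, each from 1 animal. The 5 cKO embryos were Emx1 Cre/+; Zbtb7a fl/fl, and the 5 WT embryos were Emx1 Cre/+; Zbtb7a +/+, so embryos of both genotypes carried the Cre driver. Emx1-Cre acts in progenitors of the dorsal telencephalon and their descendants, and cells of other origin in the dissected tissue keep the floxed gene. Litter 3 gave cKO 4, WT 3 and WT 4, litter 5 gave cKO 5 and WT 5, and litter 1 gave cKO 1, cKO 2, cKO 3, WT 1 and WT 2. Zbtb7a, a zinc-finger transcription factor and the deleted gene, averaged 4.46 ± 1.02 TPM in cKO and 9.59 ± 2.32 TPM in WT cortices (SD, n = 5 each). The genotypes did not overlap (two-sided exact permutation test, p = 0.00794). That p is the smallest this test can give, and the test permuted genotype over all libraries without regard to litter. The log2 fold change of Zbtb7a in the fit across all genes was -0.99 ± 0.19 (SE, adjusted p = 0.615). TPM, a transcript abundance, is scaled per transcript length and to a fixed total in each library, so read depth is unknown and every value is a share of its own library.

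Oxidative phosphorylation passes electrons from NADH and succinate through complexes I to IV of the inner mitochondrial membrane, and complex V, the ATP synthase, uses the proton gradient that results. Complexes I, III, IV and V are built from subunits encoded in mitochondrial DNA together with subunits encoded in the nucleus, and complex II is wholly nuclear. Mitochondrial DNA is transcribed as long precursors from both strands and cut into separate RNAs, some of which hold overlapping reading frames, whereas each nuclear gene has its own promoter.

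Some mitochondrial rows of the table share bases with each other or with a copy in the nuclear genome, and the sequences below show where a read cannot be assigned to 1 row. They are from the GENCODE M21 transcripts on GRCm38. The reading frames of mt-Atp8 (chromosome M, 7766 to 7969) and mt-Atp6 (chromosome M, 7927 to 8607) overlap by 43 bases, marked in capitals. mt-Co2 (chromosome M, 7013 to 7696) and Gm28661, an unprocessed pseudogene on the minus strand of chromosome 1 at 24614885 to 24615565, are shown by their first 60 bases, and were identical over 681 of the 684 bases of mt-Co2.
mt-Atp8: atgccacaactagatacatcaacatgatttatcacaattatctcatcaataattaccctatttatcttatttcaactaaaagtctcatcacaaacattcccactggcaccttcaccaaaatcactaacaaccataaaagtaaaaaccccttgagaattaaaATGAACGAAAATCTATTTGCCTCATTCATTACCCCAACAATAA
mt-Atp6, bases 1 to 60: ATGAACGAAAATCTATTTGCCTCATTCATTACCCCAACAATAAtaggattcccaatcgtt
mt-Co2, bases 1 to 60: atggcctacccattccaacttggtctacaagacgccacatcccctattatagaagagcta
Gm28661, bases 1 to 60: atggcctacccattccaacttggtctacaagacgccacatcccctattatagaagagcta

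The same stretch of chromosome 1 holds identical copies of 3 further mitochondrial genes, each an unprocessed pseudogene with its own row. Gm10925 matched 678 of the 681 bases of mt-Atp6, Gm28437 matched 783 of the 784 bases of mt-Co3, and Gm10222 matched 294 of the 297 bases of mt-Nd4l, all with 0 mismatches. mt-Co2, a catalytic core subunit of complex IV, was listed at 43.6, 20.4, 43.3, 61.0 and 20.98 TPM in cKO 1 to 5 and at 94.98, 0, 61.9, 0 and 54.8 TPM in WT 1 to 5. Its copy was listed at 2510, 2511, 3515, 3288 and 1330 TPM in cKO 1 to 5 and at 3863, 2981, 2153, 2319 and 1736 TPM in WT 1 to 5. The mitochondrial row of mt-Co2 thus held between 0 and 3.06% of the TPM of the pair in any library. For the other pairs this share ran from 7.20 to 44.4% for mt-Co3, from 23.4 to 57.3% for mt-Atp6 and from 3.30 to 27.1% for mt-Nd4l. The rows of these 4 genes alone are therefore uncertain, and the sum of gene and copy is given beside them. Only sequences with a row in the table were searched, so genes said below to be without a copy had none among these rows. On chromosome M, mt-Atp8 lies between mt-Co2 and mt-Atp6, and mt-Nd3 (9459 to 9806) between mt-Co3 and mt-Nd4l. Whether the stretch of chromosome 1 also holds mt-Atp8 and mt-Nd3 was not searched, so their rows may be uncertain too.

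**Figure D1:**
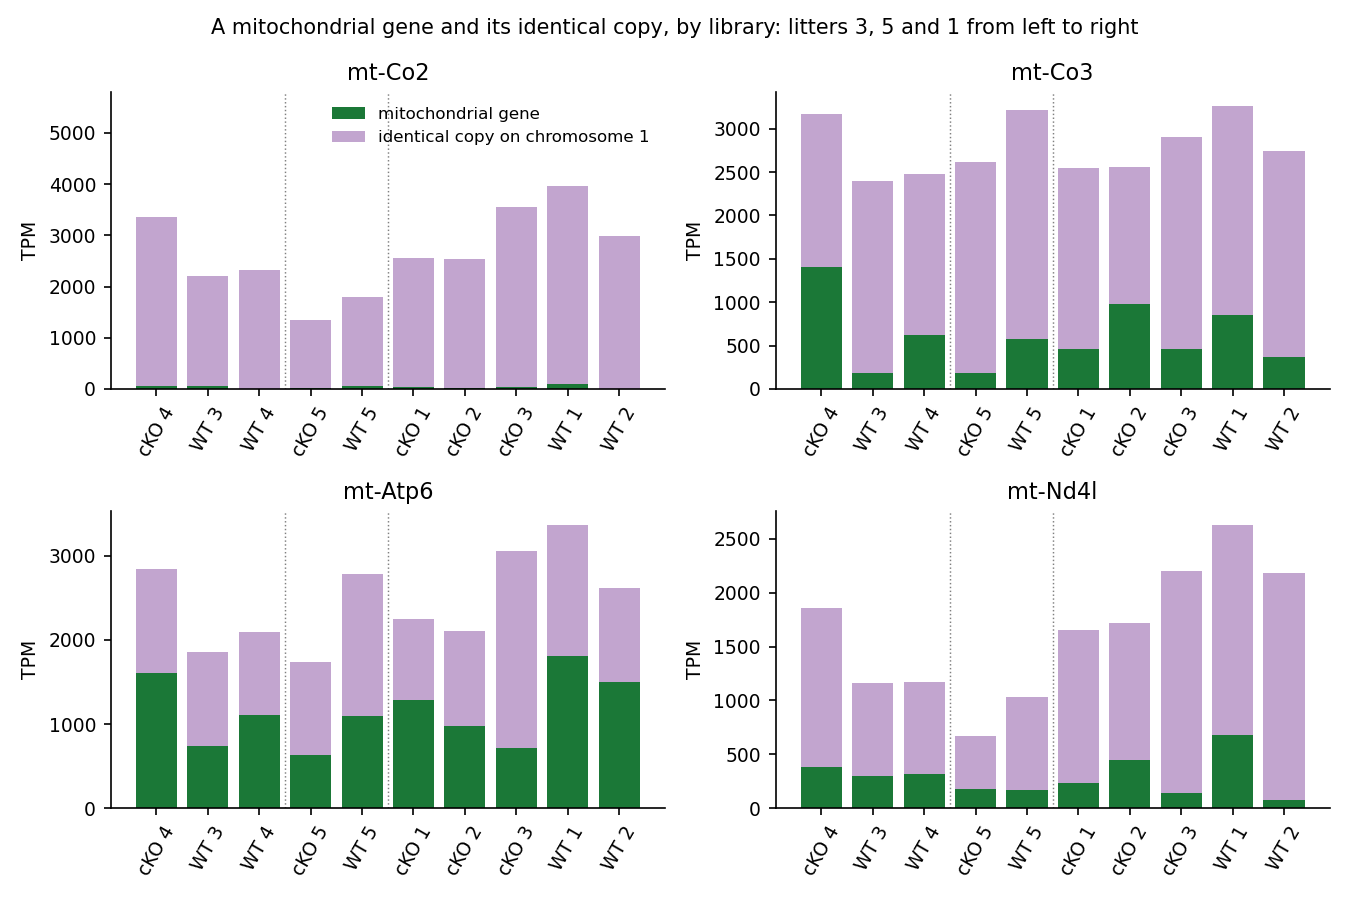
TPM of mt-Co2, mt-Co3, mt-Atp6 and mt-Nd4l (green) and of the identical copy on chromosome 1 (purple, stacked on it) in each library, 1 bar per library; dotted lines part litters 3, 5 and 1, and cKO stands left of WT within each. The green part is at most 3.06% of the mt-Co2 bars and ranges from 7.20 to 44.4% of the mt-Co3 bars.

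With the copies, the 13 mitochondrial protein genes summed to 22881, 22722, 29392, 28850 and 17541 TPM in cKO 1 to 5, against 32496, 26353, 23276, 24074 and 23040 TPM in WT 1 to 5. The genotypes overlapped; the lowest library was cKO 5 and the highest WT 1. The mean was 24277 ± 4920 TPM in cKO and 25848 ± 3940 TPM in WT cortices (SD, n = 5 each). Single genes followed the same libraries: 11 of the 13 mitochondrial protein genes were highest in WT 1, and 9 of 13 were lowest in cKO 5. mt-Nd3 made up the largest own row, with a mean of 5470 TPM over the 10 libraries, followed by mt-Atp8 with 3491 TPM and mt-Co1 with 2098 TPM. mt-Nd6, the only protein gene on the light strand, averaged 341 TPM. The rRNAs mt-Rnr1 and mt-Rnr2, which carry only short A tails, averaged 104 and 92.4 TPM in these libraries selected for polyadenylated RNA.

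The 79 nuclear members summed to 24846, 26844, 24176, 28234 and 30000 TPM in cKO 1 to 5, against 24889, 25233, 29365, 28409 and 27650 TPM in WT 1 to 5. The means were 26820 ± 2398 TPM in cKO and 27109 ± 1970 TPM in WT cortices (SD, n = 5 each). The 5 libraries of litter 1 were the 5 lowest, and the libraries of litters 3 and 5 lay above them. The largest sum came from complex V, with 9783 to 11033 TPM over the libraries, and the smallest from complex II, with 680 to 771 TPM. Within complexes, the highest and lowest members by mean TPM were Ndufa4 (479) and the iron-sulfur core subunit Ndufs1 (64.7) in complex I, the flavoprotein Sdha (242) and the membrane anchor Sdhc (158) in complex II, the hinge protein Uqcrh (628) and the core protein Uqcrc2 (156) in complex III, Cox4i1 (925) and the muscle isoform Cox7a1 (3.09) in complex IV, and the catalytic subunit Atp5b (3098) and the c-ring gene Atp5g1 (245) in complex V. All 94 members passed the filter for testing, which asked for 1 TPM or more in 5 or more of the libraries.

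The mitochondrial sum with copies divided by the nuclear sum was 0.921, 0.846, 1.22, 1.02 and 0.585 in cKO 1 to 5, against 1.31, 1.04, 0.793, 0.847 and 0.833 in WT 1 to 5. In cKO 5 the mitochondrial sum was the lowest and the nuclear sum the highest of the 10 libraries. The ratio averaged 0.918 ± 0.232 in cKO and 0.965 ± 0.214 in WT cortices (SD, n = 5 each). By litter it was 0.887 ± 0.120 in litter 3 (n = 3), 0.709 ± 0.176 in litter 5 (n = 2) and 1.07 ± 0.193 in litter 1 (n = 5). Both litter 5 libraries lay below every litter 1 library, and litter 3 overlapped with both other litters.

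**Figure D2:**
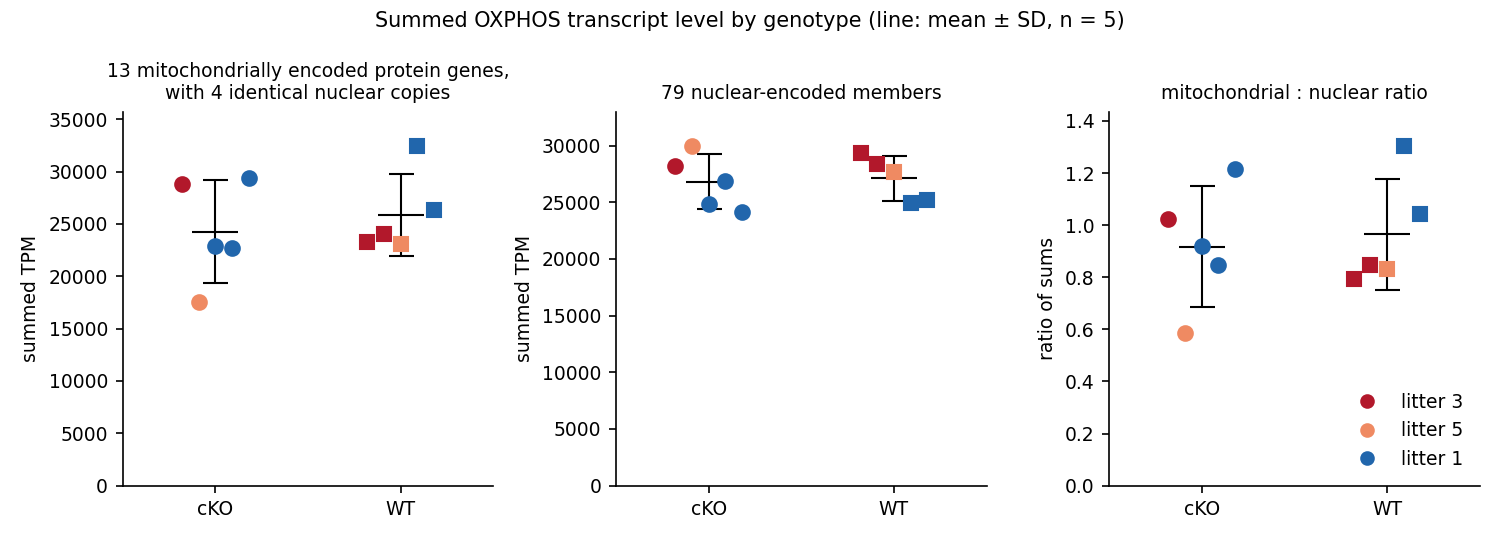
Summed TPM of the 13 mitochondrially encoded protein genes with their 4 identical copies (left), of the 79 nuclear-encoded members (middle), and the ratio of the first sum to the second (right), by genotype, 1 point per library coloured by litter, with mean and SD (n = 5). The genotypes overlap in all 3 panels; in the middle panel the 5 litter 1 libraries are the lowest, between 24176 and 26844 TPM.

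No member differed between cKO and WT cortices at the threshold used, an adjusted p under 0.05 from limma with litter as a covariate and Benjamini-Hochberg adjustment over the 13833 tested genes. The counts were 0 of 13 mitochondrial protein genes, 0 of 2 rRNAs and 0 of 79 nuclear members, where 5 of all tested genes were called (0.0361%). At an unadjusted p under 0.05, 1 nuclear member and no mitochondrial one passed, against 2.34% of all tested genes, and in no member did the genotypes fail to overlap (0.282% of all tested genes). The median log2 fold change of cKO over WT was -0.08 for the mitochondrial protein genes, 0.03 for the nuclear members and -0.01 for all tested genes. The 95% interval of the fold change lay within 1.5-fold in both directions for 76 of 79 nuclear members, the others being Atp5s, Cox6b2 and Cox7a1. It did so for 8 of 13 mitochondrial protein genes. The other 5 were mt-Atp8 and, on their own rows, the 4 genes with copies. With gene and copy summed, these 4 had log2 fold changes of -0.14 to -0.04, with SEs of 0.11 to 0.18.

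The nuclear member with the smallest p was Ndufs4, an accessory subunit of complex I. It had 110, 121, 107, 156 and 148 TPM in cKO 1 to 5, against 103, 111, 126, 116 and 139 TPM in WT 1 to 5. The groups overlapped, and the 2 highest cKO libraries were those of litters 3 and 5. Its log2 fold change was 0.16 ± 0.07 (SE; unadjusted p = 0.0472, adjusted p = 1). The next 7 by p, none of which passed, were Ndufb9 (log2 fold change 0.13), Ndufb4 (0.24), Uqcrq (0.15), Cox7a1 (-0.63), Atp5k (0.22), Ndufa11 (0.14) and Cox4i1 (0.10), and in each the genotypes overlapped. Among mitochondrial genes mt-Nd3, a core subunit of the membrane arm of complex I, had the smallest p, with 4445, 4372, 4577, 5851 and 5981 TPM in cKO 1 to 5 and 4640, 4927, 6881, 7278 and 5753 TPM in WT 1 to 5. Its log2 fold change was -0.12 ± 0.06 (SE; unadjusted p = 0.0861, adjusted p = 1). mt-Co1, the catalytic subunit of complex IV, has no copy among these rows and had 2105, 2017, 2941, 2538 and 996 TPM in cKO 1 to 5, against 3109, 2440, 1759, 1697 and 1379 TPM in WT 1 to 5, and the genotypes overlapped. mt-Atp8, a small subunit of complex V, had the lowest log2 fold change among the 9 mitochondrial protein genes without a copy, -0.29 ± 0.17 (SE; adjusted p = 1), with 2970, 3216, 4069, 3713 and 2045 TPM in cKO 1 to 5 and 4701, 3345, 3465, 3285 and 4104 TPM in WT 1 to 5. In litter 5 its cKO library was the lower one, in litter 3 its cKO library was the highest, and in litter 1 the genotypes overlapped. Summing gene and copy changed the log2 fold changes of mt-Co2, mt-Co3, mt-Atp6 and mt-Nd4l to -0.07, -0.04, -0.14 and -0.13, from own rows at 1.48, 0.28, -0.33 and 0.18, and none passed either way.

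The difference of cKO from WT in litter 1 was set against that in litters 3 and 5 by an interaction term. It called 0 of 94 members and 0 of all tested genes (0%), and at an unadjusted p under 0.05 it took 4 nuclear members and 687 of all tested genes (4.97%). The member with the smallest p was Cox6b2, the isoform of COX6B known from testis, with a log2 difference of -1.13 ± 0.28 (SE; unadjusted p = 0.00321, adjusted p = 0.949). Cox6b2 had 29.8 and 28.9 TPM in cKO 4 and cKO 5, against 18.4, 24.9 and 12.7 TPM in WT 3, WT 4 and WT 5. In litter 1 it had 12.6, 10.3 and 11.1 TPM in cKO 1 to 3, against 13.6 and 16.6 TPM in WT 1 and WT 2. The cKO libraries were thus the higher ones in litters 3 and 5 and the lower ones in litter 1, a difference that did not pass the adjustment.

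Between litters, many nuclear members differed. Against litter 1, 34 of 79 nuclear members were higher in litter 3 (43.0%) and 1 was lower, where 5.80% of all tested genes were called higher and 25.8% lower. Of the 79, 65 had a positive log2 fold change; their median was 0.21, beside -0.16 for all tested genes and -0.27 for the mitochondrial protein genes. In 37 nuclear members every litter 3 library lay above every litter 1 library, which was so for 7.34% of all tested genes. Of the 13 mitochondrial protein genes 1 was called higher, mt-Nd3, and 0 lower; 11 had a negative log2 fold change. Genotype was a term of this fit, and litter 3 held 3 libraries and litter 1 held 5. The count of nuclear members called higher was 15 without WT 3 (2.87% of all tested genes), 20 without WT 2 (3.56%) and 21 without a trend of the variance on level (4.74%), all of them among the 34. Of the 34, 12 kept the call without each library in turn and 22 lost it without at least 1. Quantile normalization moved the median of all tested genes to -0.01, with 11.7% called higher and 14.1% lower; the nuclear members then had 42 called higher and a median of 0.27.

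These litters also differed in other tissue markers, and the part of that in the member values was not tested. The summed TPM of 9 erythroid genes, all present in the table, was 41813 to 55769 in litter 3, 23922 to 26432 in litter 5 and 17328 to 19720 in litter 1. The sum of the cortical progenitor genes Emx1, Emx2, Pax6, Sox2 and Hes5 was 520 to 644 TPM in litter 3, 762 to 773 TPM in litter 5 and 764 to 913 TPM in litter 1. For 5 genes of intermediate progenitors and neurons the sum was 261 to 367 TPM in litter 3, 363 to 566 TPM in litter 5 and 577 to 747 TPM in litter 1, and for 6 mesenchymal genes 432 to 994, 198 to 276 and 197 to 312 TPM in the same order. Sums for ventral telencephalon (0.78 to 154 TPM) and for choroid plexus and hem (2.64 to 758 TPM) varied widely between libraries within litters. For 5 endothelial genes the sum was 82.2 to 93.3 TPM in litter 3, 49.5 to 116 TPM in litter 5 and 71.1 to 88.1 TPM in litter 1, and for 4 genes of microglia and macrophages 28.6 to 52.8, 18.9 to 24.4 and 22.5 to 33.6 TPM in the same order. In such whole tissue, fewer cells of a type and less RNA per cell cannot be told apart. With the TPM rescaled without the mitochondrial and globin genes, 42 nuclear members were called higher in litter 3, against 7.16% of all tested genes.

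In complex I, 15 of 36 nuclear members were higher in litter 3 (5.80% of all tested genes) and 0 lower (25.8%), with a median log2 fold change of 0.19. Ndufb8, an accessory subunit of the membrane arm, had 467, 461 and 449 TPM in litter 3 (cKO 4, WT 3 and WT 4), against 299, 372, 298, 345 and 317 TPM in litter 1 (cKO 1 to 3, WT 1 and WT 2). The litters did not overlap, and the log2 fold change was 0.53 ± 0.12 (SE; adjusted p = 0.0111). Ndufb2 and Ndufa7, also accessory subunits, were both higher by 0.46 on the log2 scale (adjusted p = 0.0178 and 0.00622), again without overlap. Ndufb8 and Ndufa7 kept the call without each library in turn, and Ndufb2 lost it without WT 2, WT 3 or WT 4. The core subunits, named like the other uncalled members below after their values were seen, did not move together: Ndufs8 was called higher (0.26; lost without any of WT 1 to WT 4), while Ndufs1, Ndufs7 and Ndufv1 had values of -0.18, -0.06 and -0.05 and Ndufs3 and Ndufv2 values of 0.13 and 0.18 that were not called.

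Ndufb4 was called higher as well, at 0.48 ± 0.13 (SE; adjusted p = 0.021; lost without WT 2, WT 3 or cKO 4), and its row is uncertain. A processed pseudogene, Gm3244, matched 390 of its bases at 100% identity and averaged 177 TPM over the 10 libraries, against 76.7 TPM on the row of Ndufb4 itself. Gene and copy summed to 266, 303 and 345 TPM in litter 3 (cKO 4, WT 3 and WT 4), against 200, 243, 223, 212 and 192 TPM in litter 1 (cKO 1 to 3, WT 1 and WT 2), and the litters did not overlap in the sum. The row of the copy alone was called higher in litter 3 at 0.51 ± 0.15 (SE; adjusted p = 0.0309). Of the 79 nuclear members, 19 had a match of at least 95% identity over at least 200 bases to another row, and in 5 the matching row held 10% or more of their mean TPM. Besides Ndufb4 these were Ndufs5 and Atp5g1 with processed pseudogenes, and Atp5l and Ndufb5 with stretches shared with the protein-coding genes Senp6 and Mrpl47.

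In complex II, 1 of 4 members was called higher and 1 lower, beside 5.80% and 25.8% of all tested genes. The share lower thus lay near that of all tested genes. Sdha, which holds the site that oxidises succinate, was the only nuclear member called lower in litter 3, with 175, 203 and 249 TPM there (cKO 4, WT 3 and WT 4), against 297, 236, 310, 289 and 264 TPM in litter 1 (cKO 1 to 3, WT 1 and WT 2). The litters overlapped, in that WT 4 lay above cKO 2. Its log2 fold change was -0.47 ± 0.12 (SE; adjusted p = 0.0178), and the call was lost without WT 3 (-0.43) or without cKO 4 (-0.36). Sdhd, a membrane anchor, was called higher at 0.37 ± 0.10 (SE; adjusted p = 0.0221), with 174 to 195 TPM in litter 3 and 124 to 157 TPM in litter 1; this call was lost without WT 2, WT 3 or WT 4. The iron-sulfur subunit Sdhb and the anchor Sdhc had log2 fold changes of 0.06 and 0.07 and were not called.

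In complex III, 4 of 8 members were higher in litter 3 (5.80% of all tested genes), the small subunits Uqcrh (0.50), Uqcr10 (0.44), Uqcr11 (0.43) and Uqcrq (0.34). Uqcrh had 729, 798 and 716 TPM in litter 3 (cKO 4, WT 3 and WT 4), against 501, 569, 484, 537 and 563 TPM in litter 1 (cKO 1 to 3, WT 1 and WT 2). The litters did not overlap, and the adjusted p of 0.00481 was the smallest of any nuclear member. The Rieske protein Uqcrfs1 and the core proteins Uqcrc1 and Uqcrc2 had values of -0.02, -0.02 and 0.03 and were not called. Uqcrb, also a small subunit, was not called either, at 0.10 ± 0.08 (SE; adjusted p = 0.366), with 226 to 229 TPM in litter 3 and 199 to 240 TPM in litter 1. The calls were lost without WT 3 for Uqcr10, Uqcr11 and Uqcrq, also without WT 2 for Uqcrq, and without WT 1 or WT 4 for Uqcr11.

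In complex IV, 7 of 14 members were higher (5.80% of all tested genes) and 0 lower (25.8%), with a median of 0.25. Cox6b2 had the largest log2 fold change of any nuclear member, 0.91 ± 0.26 (SE; adjusted p = 0.0251), with 29.8, 18.4 and 24.9 TPM in litter 3 (cKO 4, WT 3 and WT 4) and 10.3 to 16.6 TPM in litter 1. Cox4i1, Cox6c, Cox7a2, Cox7c, Cox6b1 and Cox8a were higher by 0.21 to 0.43, and Cox5a had a value of 0.00. Leaving out 1 library at a time ended the call of Cox6b1 in 7 of 10 fits, of Cox8a in 5 (without WT 1, WT 2, WT 3, cKO 1 or cKO 4), of Cox7a2 in 3 (without WT 2, WT 3 or cKO 4) and of Cox6b2 in 2 (without WT 4 or cKO 4); Cox6b1 kept it only without cKO 2, cKO 5 or WT 5. Cox4i1, Cox6c and Cox7c kept theirs in all 10. Isoforms known from other tissues were a minor share throughout. Cox6b2 made up 2.09 to 5.38% of Cox6b1 and Cox6b2 together, the muscle isoform Cox7a1 0 to 2.52% of Cox7a1 and Cox7a2, and the lung isoform Cox4i2 0.352 to 0.698% of Cox4i1 and Cox4i2. In the muscle list, Myh3, Actc1 and Tnnt2 were under 1 TPM in every library.

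In complex V, 7 of 15 members were higher in litter 3 (5.80% of all tested genes) and 0 lower (25.8%). Atp5e, the epsilon subunit of the central stalk, had 1313, 1493 and 1557 TPM in litter 3 (cKO 4, WT 3 and WT 4), against 930, 1189, 905, 995 and 1041 TPM in litter 1 (cKO 1 to 3, WT 1 and WT 2). The litters did not overlap, and the log2 fold change was 0.53 ± 0.11 (SE; adjusted p = 0.00874). The catalytic subunits Atp5a1 and Atp5b had values of -0.18 (adjusted p = 0.0522) and -0.08 and were not called, and the 3 c-ring genes Atp5g1, Atp5g2 and Atp5g3 had values of 0.07, 0.06 and 0.15 that were not called either.

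**Figure D3:**
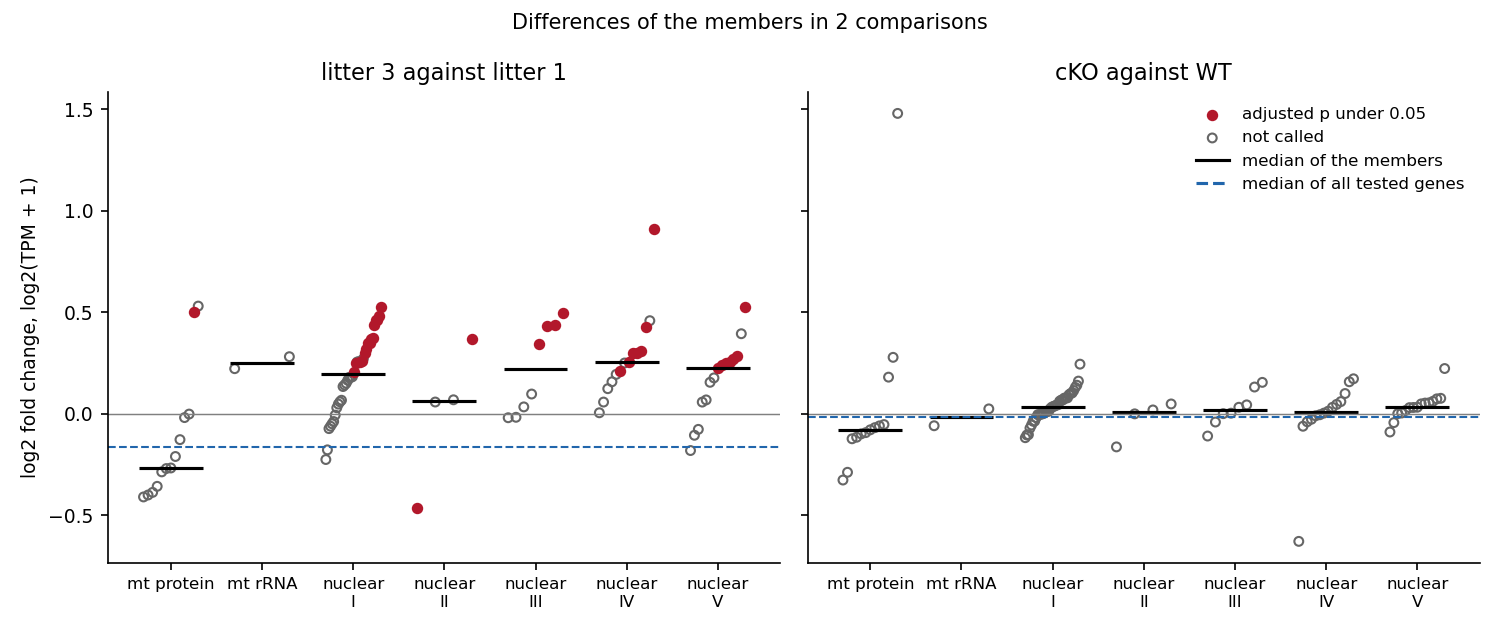
Log2 fold changes of litter 3 over litter 1 (left) and of cKO over WT (right) on the log2(TPM + 1) scale, 1 point per member, for mitochondrial protein genes (own rows), rRNAs and nuclear members of complexes I to V; filled points passed an adjusted p of 0.05, black lines are the members' medians and the dashed line the median of all tested genes. Filled points are seen only on the left, 34 nuclear members and mt-Nd3 higher and Sdha lower, and the outlying points on the right are mt-Co2 (own row) at 1.48 and Cox7a1 at -0.63.

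mt-Nd3 stood apart from the other mitochondrial protein genes without a copy row, although a copy of it without a row was not searched for. It had 5851, 6881 and 7278 TPM in litter 3 (cKO 4, WT 3 and WT 4), against 4445, 4372, 4577, 4640 and 4927 TPM in litter 1 (cKO 1 to 3, WT 1 and WT 2), a log2 fold change of 0.50 ± 0.07 (SE; adjusted p = 0.0029). Under quantile normalization this call was lost. mt-Cytb, the core of complex III, had 1329, 913 and 936 TPM in litter 3 (cKO 4, WT 3 and WT 4), against 1175, 1111, 1513, 1742 and 1358 TPM in litter 1 (cKO 1 to 3, WT 1 and WT 2). Within litter 3 its cKO library lay above both WT libraries. Its log2 fold change was -0.41 ± 0.18 (SE; adjusted p = 0.114), and those of mt-Co1, mt-Nd4, mt-Nd5, mt-Nd1, mt-Nd2 and mt-Nd6 ran from -0.40 to -0.27 without passing. Without cKO 4, 7 mitochondrial protein genes were called lower in litter 3, and the median of the 13 was -0.71; without WT 1 the median was -0.05. The rRNAs mt-Rnr1 and mt-Rnr2 had values of 0.28 and 0.22 and were not called. With gene and copy summed, mt-Nd4l had 1857, 1160 and 1169 TPM in litter 3 (cKO 4, WT 3 and WT 4), against 1651, 1721, 2201, 2626 and 2180 TPM in litter 1 (cKO 1 to 3, WT 1 and WT 2). That sum was called lower, at -0.62 ± 0.21 (SE; adjusted p = 0.0483), where its own row had an uncalled value of 0.53.

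Between litter 5 and litter 1 no member was called, and 3 of all tested genes were (0.0217%). Litter 5 held only 2 libraries. At an unadjusted p under 0.05, 39 nuclear members were higher and 2 lower, against 5.47% and 13.7% of all tested genes, and 7 mitochondrial protein genes were lower and 1 higher. In 7 of the 13, both litter 5 libraries lay below every litter 1 library (14.4% of all tested genes). The medians were -0.87 for the mitochondrial protein genes, 0.21 for the nuclear members and -0.09 for all tested genes. mt-Cytb had 508 and 700 TPM in cKO 5 and WT 5, against 1111 to 1742 TPM in litter 1, a log2 fold change of -1.20 ± 0.20 (SE; adjusted p = 0.141). mt-Nd3 again went the other way, with 5981 and 5753 TPM in cKO 5 and WT 5, against 4372 to 4927 TPM in litter 1, a log2 fold change of 0.34 ± 0.08 (SE; adjusted p = 0.16). The rRNAs mt-Rnr1 and mt-Rnr2 had log2 fold changes of -0.53 and -0.51, and both litter 5 libraries lay below all of litter 1. Litters 3 and 5 were set against the same 5 libraries of litter 1, so the results in these litters are not independent of each other.

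**Figure D4:**
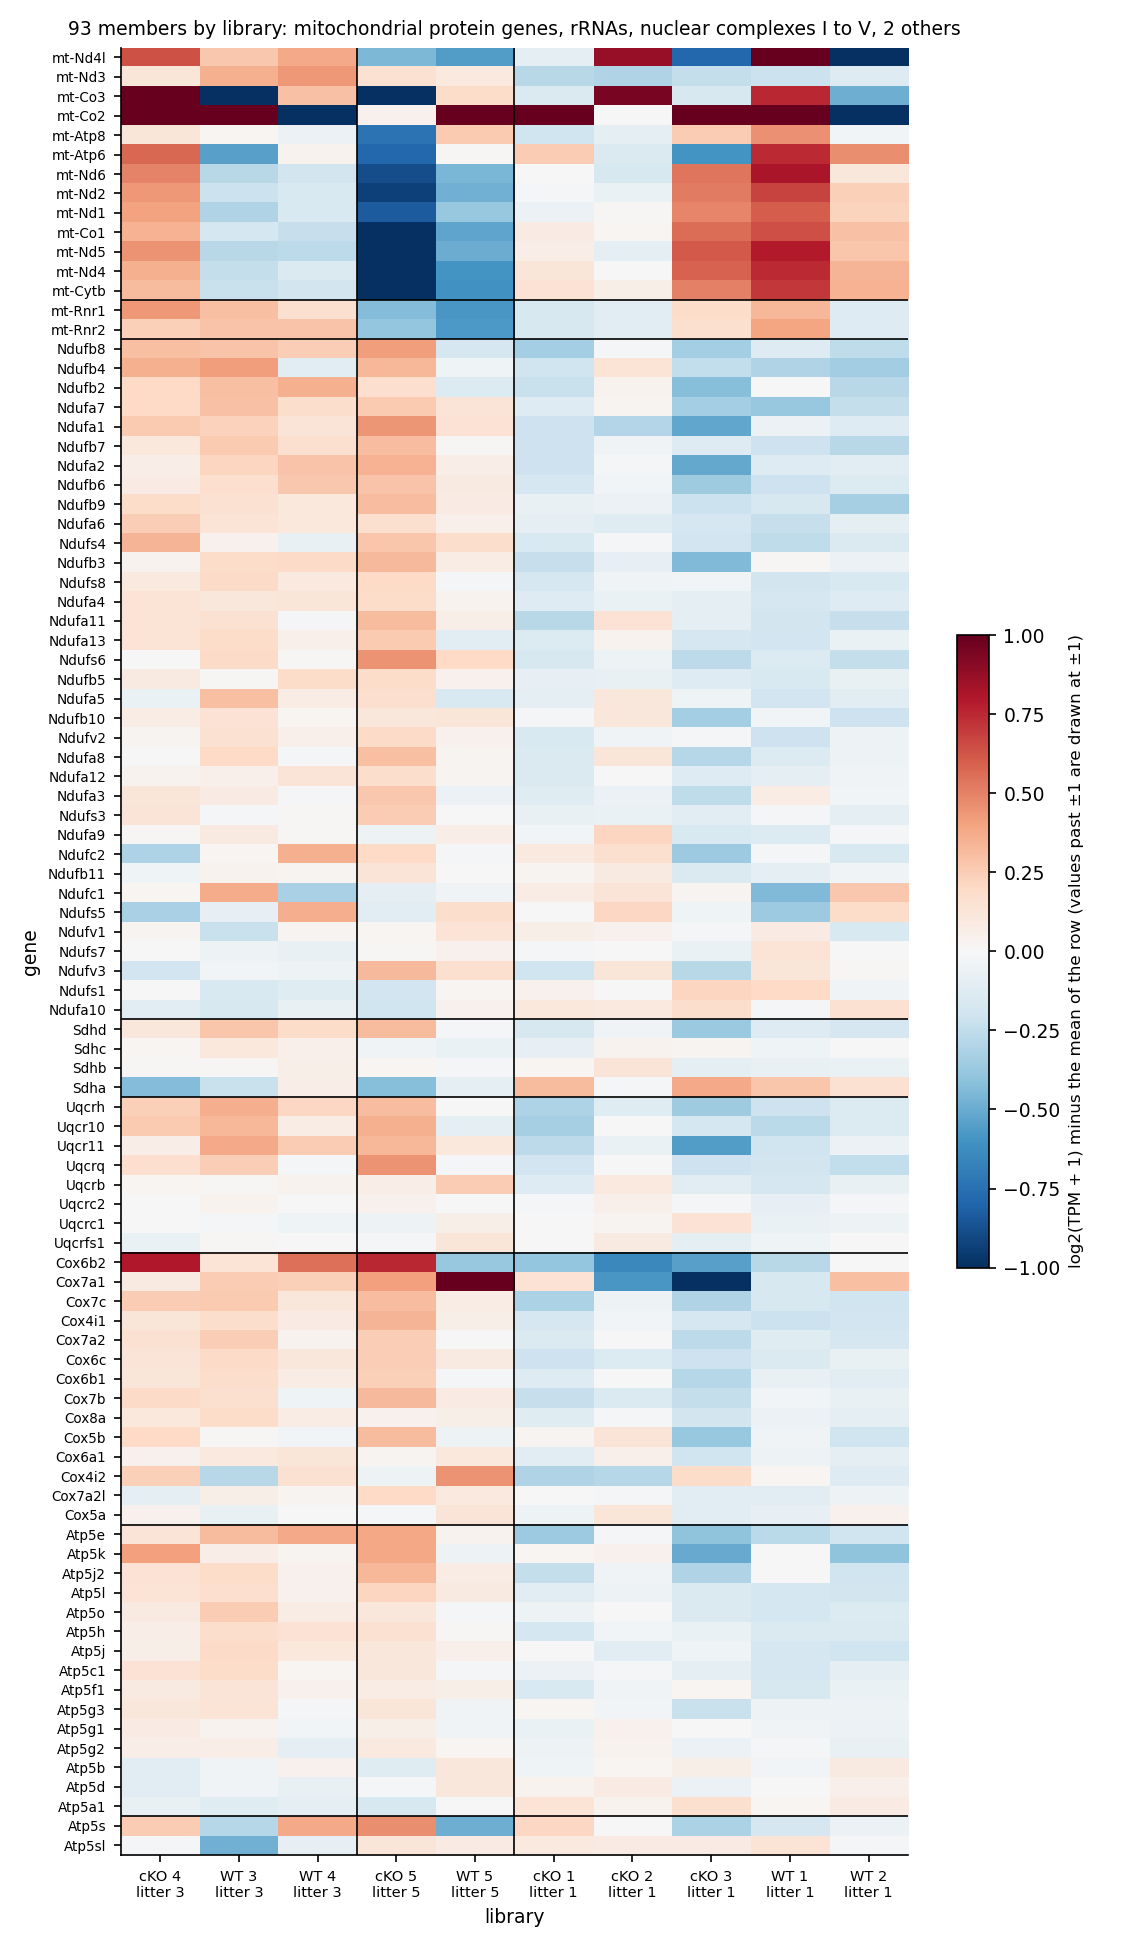
Log2(TPM + 1) of 93 of the 94 members in each library, minus the mean of the row over the 10 libraries, with libraries of litters 3, 5 and 1 from left to right, cKO before WT in each, and members grouped as mitochondrial protein genes, rRNAs, nuclear complexes I to V and 2 others. Most nuclear rows are red in litters 3 and 5 and blue in litter 1, paler in WT 5 and cKO 2, most mitochondrial rows are deep blue in cKO 5 and red in WT 1 and cKO 3, and the uneven rows of mt-Nd4l, mt-Co2 and mt-Co3 are genes with copies.

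The nuclear members are short genes, and the difference between litters 3 and 1 went with coding length over the whole table. The median coding length was 429 bases for the 79 nuclear members and 1400 bases for the 12452 tested genes with a coding length. Across genes, which are not independent replicates, Spearman's rho between coding length and the log2 fold change of litter 3 over litter 1 was -0.629 for the nuclear members and -0.464 for the tested genes. With the other genes cut into 10 equal classes by length, the class of the longest had a median log2 fold change of -0.54 and that of the shortest one of 0.13. Up to 400 bases, 23 of 35 nuclear members were called higher (65.7%), against 16.2% of 605 other genes of that length. From 401 to 800 bases it was 10 of 30 (33.3%), against 13.6% of 2155 other genes. From 801 to 1600 bases it was 1 of 11 (9.09%), against 4.97% of the others. Of the 3 longer members 0 were higher and 1, Sdha, was lower, against 1.68% higher and 42.6% lower among 5191 other genes. Of the short mitochondrial genes, mt-Nd3 with 345 coding bases was called higher, while mt-Atp8 with 201 had a log2 fold change of -0.13. Length was thus a measured property that moved with the result, and its part in the result was not tested further. For cKO against WT the same rho was -0.022 for the nuclear members and -0.172 for the tested genes.

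**Figure D5:**
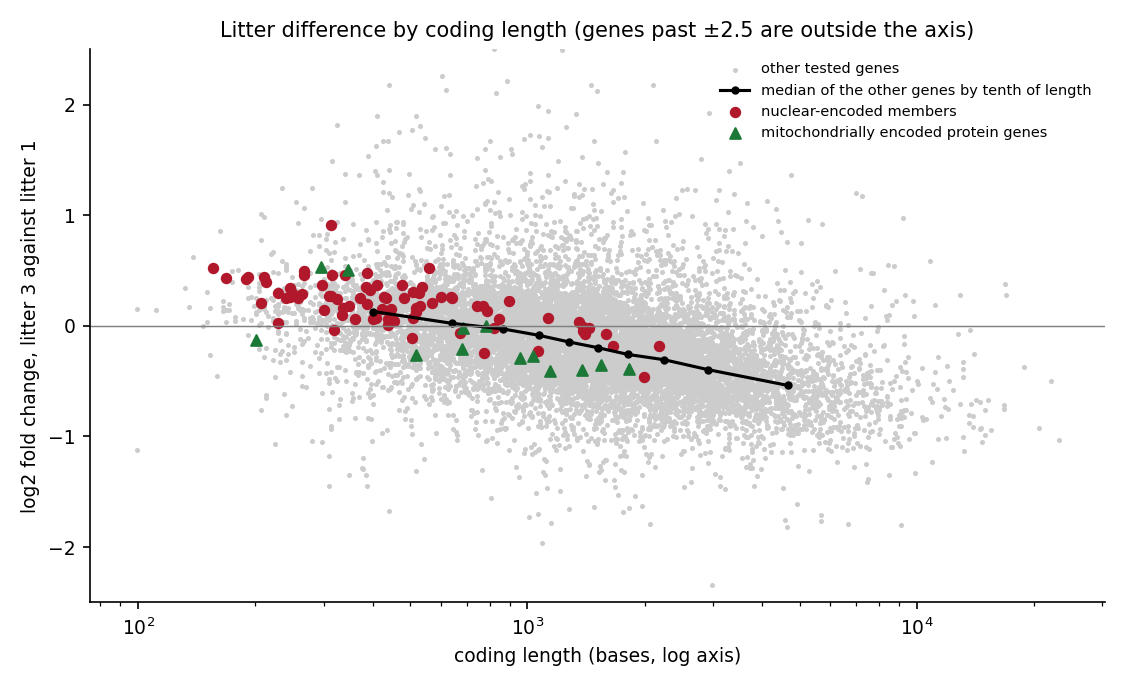
Log2 fold change of litter 3 over litter 1 against coding length in bases (log axis), 1 point per tested gene, with nuclear members in red, mitochondrial protein genes as green triangles, other genes in grey and the median of the other genes in each of 10 classes by length as a black line. The black line runs from 0.13 in the shortest class to -0.54 in the longest, the red points gather at the short end, mostly above 0, and 2 of the green triangles at the short end, mt-Nd3 and mt-Nd4l (own row), lie near 0.5.

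Promoters of the nuclear members were searched for 3 short motifs of factors known for their part in the expression of respiratory genes. RefSeq promoters on GRCm38.p6, from 250 bases before to 50 after the start, were matched by symbol or older symbol to 67 of the 79. On either strand, GCGCATGCG (bound by NRF1) was in 8 of 67 (11.9%), against 1.95% of all 27025 promoters in the RefSeq table and 4.15% of those of 10183 tested genes. CCGGAAG (bound by ETS factors such as GABP) was in 16 of 67 (23.9%), against 9.93% of all and 2041 of the 10183 tested. For this motif the share in the members thus lay near that of the tested genes. AANATGGC (bound by YY1) was in 18 of 67 (26.9%), against 6.96% of all and 9.95% of the tested. The ETS motif was in 12 of 29 promoters of members called higher in litter 3 (41.4%) and in 4 of 38 of the other members (10.5%), the NRF1 motif in 2 of 29 (6.9%) and 6 of 38 (15.8%), and the YY1 motif in 8 of 29 and 10 of 38. No motif is contained in another. These are matches of letters, not shown sites, and no test was made of them. Only Uqcr11 and Atp5l, among members called higher in litter 3, held both the NRF1 and the ETS motif. Uqcr11, a small subunit of complex III, had 414 to 515 TPM in litter 3 and 268 to 381 TPM in litter 1, and Atp5l, subunit g of complex V, had 461 to 502 TPM in litter 3 and 393 to 432 TPM in litter 1. Their promoters are printed 5′ to 3′ on the minus strand, Uqcr11 from chr10:80406772-80407071 and Atp5l from chr9:44920693-44920992, with the NRF1 and ETS matches in capitals (CGCATGCGC and CTTCCGG are the other-strand readings).
Uqcr11: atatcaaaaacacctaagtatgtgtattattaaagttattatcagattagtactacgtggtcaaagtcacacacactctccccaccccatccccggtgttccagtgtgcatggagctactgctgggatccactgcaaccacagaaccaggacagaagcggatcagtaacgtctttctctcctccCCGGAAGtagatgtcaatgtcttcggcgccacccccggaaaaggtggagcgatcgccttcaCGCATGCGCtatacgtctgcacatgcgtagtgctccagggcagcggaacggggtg
Atp5l: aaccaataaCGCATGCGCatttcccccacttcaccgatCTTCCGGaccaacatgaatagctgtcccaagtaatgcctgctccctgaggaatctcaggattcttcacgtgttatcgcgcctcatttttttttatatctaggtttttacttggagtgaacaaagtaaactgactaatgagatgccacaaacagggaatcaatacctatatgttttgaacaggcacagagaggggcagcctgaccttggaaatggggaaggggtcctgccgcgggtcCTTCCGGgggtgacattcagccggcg

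Other mitochondrial genes were read from the same fit, by lists of their roles. None was called between cKO and WT (0.0361% of all tested genes were): 0 of 45 assembly factors, 0 of 76 genes of the mitochondrial ribosome, 0 of 15 of mitochondrial DNA replication and transcription, 0 of 16 of mitochondrial RNA processing, 0 of 17 of the tricarboxylic acid cycle, 0 of 9 biogenesis regulators and 0 of 7 carriers and subunits outside the name rule. At an unadjusted p under 0.05, 3 assembly factors, 1 gene of replication and transcription and 2 carriers and subunits were higher in cKO (1.24% of all tested genes), and no gene of any list was lower. One of these, Ndufa4l2, a relative of Ndufa4 known to be induced by hypoxia, averaged 10.3 ± 1.96 TPM in cKO and 6.69 ± 0.757 TPM in WT cortices (SD, n = 5 each), a log2 fold change of 0.54 that did not pass (adjusted p = 1).

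In litter 3 against litter 1 the lists were read beside 5.80% of all tested genes called higher and 25.8% lower. They were not set beside genes of like coding length. Among genes that are no member, the share called lower rose from 5.62% up to 400 coding bases to 42.6% from 1601 bases on. Of the 76 genes of the mitochondrial ribosome, 17 were higher and 1 lower, with a median of 0.14. Mrpl54 averaged 140 ± 10.4 TPM in litter 3 and 105 ± 12.4 TPM in litter 1 (SD, n = 3 and 5; adjusted p = 0.00612), and Mrps2 was the one called lower (-0.43, adjusted p = 0.0118). Of 45 assembly factors 3 were higher, among them Uqcc2 (0.56) and the copper chaperone Cox17 (0.40), and 2 lower, a share higher that lay near that of all tested genes. Of 17 genes of the tricarboxylic acid cycle 6 were lower and 0 higher: citrate synthase Cs averaged 138 ± 5.97 TPM in litter 3 and 202 ± 11.6 TPM in litter 1 (SD, n = 3 and 5; log2 fold change -0.57, adjusted p = 0.00373). Of 16 genes of mitochondrial RNA processing 4 were lower and 0 higher, including Lrpprc, which stabilises mitochondrial mRNAs, with 20.6 ± 2.06 TPM in litter 3 and 31.1 ± 3.51 TPM in litter 1 (SD, n = 3 and 5; adjusted p = 0.0109). The share lower in that list also lay near that of all tested genes, and the share lower in the tricarboxylic acid cycle list was not far above it. Of 9 biogenesis regulators 5 were lower and 0 higher, among them Yy1 (-0.41), Pprc1 (-0.64), Gabpa (-0.47) and Ppargc1a (-0.69). Of 15 genes of mitochondrial DNA replication and transcription 2 were higher, Tefm (0.37) and the single-strand binding protein Ssbp1 (0.30), and of the 7 carriers and subunits 2 were higher, the ATPase inhibitor Atpif1 (0.39) and Higd1a (0.49).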

How the data were processed

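RNA-seq values were analysed from 10 libraries, each labelled as 1 animal. The deposited table gives TPM per gene, which the authors scaled to the same total in each library, so read depth is unknown and no counting interval is given; precision comes from the spread between animals. Per the submitters' processing notes, cutadapt, featureCounts, DESeq2 and mm10 were used, without versions; how reads matching several places were treated was not stated in the sources used. The series' design text speaks of 3 cortices a condition and 2 litters, and the labels give 5 a genotype and 3 litters; the labels were followed. In the table, 5 unnamed columns were not used and 26 gene names altered by a spreadsheet were restored.

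From the TPM, log2(TPM + 1) was fitted with limma 3.58.1 (R 4.3.3) on terms for litter and genotype, with a variance trend and 6 residual degrees of freedom. Genes at 1 TPM or more in at least 5 libraries were tested (13833 of 24814), and calls needed a Benjamini-Hochberg adjusted p under 0.05 over all of them. Fold changes are on the log2(TPM + 1) scale, which understates changes of low genes. Copies were found with blastn 2.17.0 against GENCODE M21 transcripts, which held 24762 of the gene IDs, and coding lengths came from the same release. The fit was tested on simulated data, for cKO against WT and for litter 3 against litter 1. Of log2 changes of 0.25 set into them, 4.84% and 2.32% were called, so most set changes of that size were missed there. At 0.5 it was 36.5% and 23.3%, and at 2 it was 96.5% and 92.8%. Of genes without a set change, 0.0458% and 0.0355% were called. The simulated data held a set change in only a small part of the genes, and drew the spread of each gene independently. The real fit of litter 3 against litter 1 called 803 genes higher and 3575 lower, which makes its adjustment less strict. The simulated shares thus do not carry over to that comparison, where Cox8a was called at 0.21.

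Members and lists were chosen with earlier results of these data known. Genes named were the mitochondrial genes, the 8 nuclear members with the largest called changes per comparison (filled by the smallest p), the extremes of level per complex, the isoforms, and 2 to 4 genes of each other list. Alternatives covered the pseudocount, filter, scaling, variance model, terms, litters, a replicate block and leaving out each library. Summed copies, a fit without litter 5 and a filter over 3 libraries were chosen after seeing the data. Values of 1 member and 1 marker gene are not reported here.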

Additional observations from a re-analysis of the deposited data

Results flagged for a closer look

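Within litter 1 or within a genotype, 5 of the 135 groups of 5 libraries tested held a library far from the other 4. Chance flags about 1 in 20 such groups. In litter 1, cKO 2 was the highest library for Ndufb4 (82.73 TPM, against 59.03 to 65.27 TPM in the others), for Uqcrq (450.97 TPM, against 379.63 to 397.07 TPM) and for Cox4i1 (901.97 TPM, against 788.41 to 815.54 TPM). Among WT libraries, WT 5 was the highest for Cox7a1 (7.23 TPM, against 2.27 to 3.49 TPM in the others), and WT 2 was the lowest for Atp5k (333.52 TPM, against 424.54 to 459.6 TPM).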

How the results depend on the processing

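Read depth is unknown, mt-Co2, mt-Co3, mt-Atp6 and mt-Nd4l share their reads with copies, and litter 5 has 2 libraries, so small differences there could not be resolved. Of the alternatives for single genes, 2275 kept a call or, for uncalled genes, stayed within the residual SD of the main value. Another 84 moved further, 57 lost a call, 23 gained one and 0 of the called ones reversed. The sign of uncalled values was not checked in this count. Some changed it, such as Cox6b2 for cKO against WT, at 0.172 and at -0.084 without WT 5 or without cKO 5. The cause of each change was not tested. For cKO against WT, all genes lower numbered 4, and 2 with a filter at 5 TPM, in litters 3 and 5 only and without litter 5, and 0 in litter 1 only. For litter 3 against litter 1, nuclear members lower numbered 1, and 3 with array weights, the 5 TPM filter, no genotype term or without litter 5; without a variance trend 21 were higher. Quantile normalization gave 1612 genes higher and 1945 lower (803 and 3575), medians of -0.006 for all genes and 0.274 for nuclear members, 0 mitochondrial protein genes higher and 2 nuclear members lower. Summing copies gave 1 mitochondrial protein gene lower. For litter 5 against litter 1, the 1 gene higher and 2 lower became 0 and 0 with array weights or no trend; genes higher were 19 with no filter, 3 without the genotype term and 2 with quantile normalization, whose median over all genes was -0.015. The interaction called 1 gene lower with no filter, and 1 higher and 2 lower without litter 5.

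Same-numbered libraries did not deviate together (correlations 0.268, 0.077, -0.291, 0.303 and -0.168), so numbers do not pair them. A replicate block in place of litter left 1 gene lower for cKO against WT. The replicate block with litter left 2. For litter 3 against litter 1 it gave 2 genes higher and 2 lower, with 0 mitochondrial members higher, 0 nuclear members higher and 0 lower. Its medians were -0.254 for all genes, -0.932 for mitochondrial protein genes and 0.391 for nuclear members. Only cKO 3 and WT 3 share a number and differ in litter, so that contrast rested on this 1 pair. Its counts therefore cannot decide whether the litter 3 calls of the main fit hold. The replicate block with litter gave no litter 5 contrast and was not run for the interaction.

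Leaving out 1 library at a time, cKO against WT gave 2 to 4 genes lower and the interaction 0 to 20 higher and 0 to 2 lower. Litter 3 against litter 1 gave 397 to 837 genes higher and 2188 to 3691 lower (median -0.22 to -0.144), mitochondrial medians of -0.712 (without cKO 4) to -0.053 (without WT 1) with 0 to 7 lower, and 15 (without WT 3) to 36 nuclear members higher and 0 to 3 lower. Litter 5 against litter 1 gave 0 to 192 genes higher and 0 to 892 lower (without WT 5; median -0.159 to -0.014), mitochondrial medians of -1.169 to -0.604 with 0 to 1 higher and 0 to 3 lower, and nuclear medians of 0.123 to 0.289 with 0 to 20 higher; without cKO 5 or WT 5 that litter is 1 library, assumed to vary like the others.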

Other observations

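Ndufs5, an accessory subunit of complex I, and BC002163, a processed pseudogene matching 319 of its bases at 99.4% identity, divided their TPM unevenly between libraries. BC002163 was listed at 11.98, 2.1, 0, 107 and 107 TPM in cKO 1 to 5, and at 98.8, 0, 118, 1.41 and 8.66 TPM in WT 1 to 5. The 4 libraries near 100 TPM came from both genotypes and all 3 litters.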
